A study of Homo sapiens with 9 samples.

Results

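The mRNAs of the translation elongation factors were followed through an eCLIP experiment on malate dehydrogenase 2 (MDH2), an enzyme of the tricarboxylic acid cycle. They were taken by name, as all exon windows listed under EEF1A1, EEF1B2, EEF1D, EEF1G and EEF2. These are 5 of the 29166 genes with an exon window, and they hold 631 of 2564772 listed exon windows. In eCLIP, UV light ties RNA to the proteins it touches, a protein is immunopurified (IP), and the end of each sequenced fragment marks the cross-link site. All 9 libraries came from the human hepatoma cell line Huh7, with no treatment other than UV cross-linking, sonication and a short RNase I digestion. The 3 groups of 3 libraries were MDH2 IP, made with an antibody to MDH2, IgG IP, made with a control antibody of the same isotype, and the size-matched input (SMI), lysate set aside before the IP and run on the same gel. The study compared MDH2 IP with SMI to find RNAs bound by MDH2, and used IgG IP to judge specificity. Both IPs went through more PCR cycles than SMI, so cycle number and IP cannot be told apart. The labels number the replicates without naming separate cultures, so p-values measure the spread between these libraries.

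During elongation, eEF1A (EEF1A1) carries each aminoacyl-tRNA to the ribosome bound to GTP. The eEF1B complex recharges it with fresh GTP: EEF1B2 and EEF1D encode its exchange subunits and EEF1G a scaffold subunit. eEF2 (EEF2) then moves the ribosome along the mRNA. Their mRNAs are among the most abundant of growing cells and belong to the TOP mRNAs, whose transcripts start with C followed by a run of pyrimidines and whose translation follows growth signals.

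The start sites of the 4 measured members are printed to show this feature, from the RefSeq promoter table on GRCh38.p14. The annotated transcripts of EEF1A1, EEF1B2 and EEF2 begin with C, and that of EEF1G begins 1 base before its C, with an A. Each shows 30 bases around the start site, and capitals mark CTTT or CTCT beginning at base 1 or 2 of the transcript.
EEF1A1, chr6:73521013-73521042, minus strand: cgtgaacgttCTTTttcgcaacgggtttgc
EEF1B2, chr2:206159885-206159914, plus strand: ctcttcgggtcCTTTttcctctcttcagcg
EEF1G, chr11:62573872-62573901, minus strand: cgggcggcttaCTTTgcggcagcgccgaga
EEF2, chr19:3985444-3985473, minus strand: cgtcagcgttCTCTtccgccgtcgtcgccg
Of 35116 promoters in the table, 1443 (4.11%) held CTTT or CTCT beginning at base 1 or 2 on the transcribed strand, and 4.12% held the same letters there on the opposite strand.

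Sites were counted in windows of 50 nt placed every 20 nt, so a site enters up to 3 windows and values below are window counts. Exon windows held 3249974 to 5078220 counts per MDH2 IP library, 3651665 to 4657949 per SMI library and 506441 to 1134432 per IgG IP library, so changes in IgG IP were measured with less precision. Levels are exon window CPM, counts scaled to a library of 1000000 with TMM factors over the 9 libraries, with the SD of 3 libraries. The 13 hepatoma markers were all detected, with summed levels of 10900 to 14300 CPM in MDH2 IP, 12900 to 16800 in SMI and 7700 to 13100 for IgG IP. The summed level of 10 markers of other cell types did not exceed 30.2 CPM in any library.

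EEF1D could not be compared. It was listed with 4 windows, all of exon 12, that held 13 counts in all libraries together. These were 2, 2 and 1 counts in MDH2 IP, 0, 5 and 2 in SMI and 1, 0 and 0 for IgG IP. The other 4 members (EEF1A1, EEF1B2, EEF1G and EEF2) had 233, 89, 117 and 188 listed windows, and reached the 10 counts in 3 libraries needed for a test. On GRCh38, EEF1A1 (ENSG00000156508.17) lies at chr6:73489308-73525587 on the minus strand, EEF1B2 (ENSG00000114942.13) at chr2:206159585-206162928 on the plus strand, EEF1G (ENSG00000254772.9) at chr11:62559596-62574086 on the minus strand and EEF2 (ENSG00000167658.15) at chr19:3976056-3985463 on the minus strand.

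The elongation factor mRNAs were not enriched in MDH2 IP. Summed over exon windows, EEF1A1, EEF1B2 and EEF1G were lower in MDH2 IP than in SMI. EEF2 did not pass the test, except with the replicate number as a block. Of all 13923 genes tested, 10.7% were lower and 8.6% higher. With total counts as library size in place of TMM, the median of all genes moved from 0.0050 to 0.17 and the EEF1G call alone was kept, with the direction of the members the same. Counts are shares of a library, so less of one RNA and more of the others cannot be told apart.

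EEF1A1 exon windows held 1200, 1369 and 1178 CPM in MDH2 IP, 1997, 2627 and 1502 CPM in SMI, and 1097, 874.2 and 728.2 CPM for IgG IP. All MDH2 IP libraries lay below all SMI libraries and above all IgG IP libraries. The log2 fold change of MDH2 IP over SMI was -0.75 (SE 0.21, adjusted p = 0.0329, edgeR quasi-likelihood test). The call rested on all libraries but SMI replicate 3, since leaving out any of the other 5 raised the adjusted p to between 0.0506 and 0.122.

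EEF1B2 exon windows held 128.3, 112.4 and 116.8 CPM in MDH2 IP, 175.9, 180.2 and 147.0 CPM in SMI, and 110.7, 40.32 and 105.7 CPM for IgG IP. MDH2 IP lay below SMI in every library, by a log2 fold change of -0.53 (SE 0.15, adjusted p = 0.0360). Without any of the same 5 libraries (all but SMI replicate 3) the adjusted p rose to between 0.0650 and 0.130.

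EEF1G showed the largest difference of the 4. Its exon windows held 216.4, 240.7 and 257.5 CPM in MDH2 IP, 495.7, 529.4 and 388.3 CPM in SMI, and 251.4, 166.1 and 180.6 CPM for IgG IP. Every SMI library lay above every library of both IPs. The log2 fold change over SMI was -1.02 (SE 0.16, adjusted p = 0.00316), and it passed under all 16 alternatives tried.

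EEF2 exon windows held 1566, 1993 and 1464 CPM in MDH2 IP, 1982, 2672 and 1492 CPM in SMI and 2079, 1435 and 1253 CPM for IgG IP. The 3 groups overlapped, though each MDH2 IP library lay below the SMI library of the same number. The log2 fold change over SMI was -0.33 (SE 0.22, 95% interval -0.83 to 0.17, adjusted p = 0.338), so a fall of the size seen in EEF1A1 lay within its interval. With the replicate number as a block EEF2 was called, as given at the end. The labels do not state that the numbers pair libraries.

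The order of levels depended on the part of the mRNA counted. Per length of the main transcript, windows within its exons (canonical exons) in MDH2 IP held 498 ± 85.8 CPM per kb for EEF2, 251 ± 25.9 for EEF1A1, 143 ± 12.4 for EEF1G and 81.0 ± 8.77 for EEF1B2 (SD, n = 3). In SMI the same order held with 611 ± 177, 465 ± 138, 310 ± 53.8 and 125 ± 10.7 CPM per kb, where the ranges of EEF2 and EEF1A1, and those of EEF1A1 and EEF1G, overlapped. In IgG IP the values were 464 ± 122, 172 ± 57.2, 116 ± 25.3 and 50.1 ± 22.2 CPM per kb. The length of EEF1A1 includes 3′ UTR with few counts, 96 of its 140 canonical exon windows. Windows across an exon border are left out of the values per kb, in unequal parts. They held 16.7% of the counts of EEF1A1, 19.9% of EEF1B2, 5.12% of EEF2 and 4.48% of EEF1G. Per coding window, EEF1A1 was above EEF2 in MDH2 IP (19.1 ± 1.84 against 11.6 ± 2.09 CPM) and in SMI (34.8 ± 10.6 against 14.6 ± 4.48 CPM), without overlap between libraries, while the IgG IP libraries overlapped (12.6 ± 4.56 against 9.68 ± 3.06 CPM). EEF1G and EEF1B2 followed in MDH2 IP with 4.29 ± 0.387 and 2.03 ± 0.172 CPM per coding window.

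Exon sums hid an opposite pattern inside EEF1A1. The gene models behind the windows merge all transcripts, so an exon window may lie in an intron of the main transcript. Windows were placed on GRCh38 and split by the Ensembl canonical transcript of GENCODE v44 into canonical exons and canonical introns, a split chosen after the values were seen. In EEF1A1, 140 windows with 75.9% of its counts lay in canonical exons and 52 windows with 7.17% in canonical introns. Windows across a border of the canonical exons held 16.7%.

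The canonical exons of EEF1A1 held 836.3, 986.1 and 821.2 CPM in MDH2 IP against 1570, 2146 and 1180 CPM in SMI. The canonical introns held 164.4, 149.3 and 162.3 CPM in MDH2 IP against 72.19, 48.9 and 60.44 CPM in SMI. MDH2 IP was thus below SMI in the exons and above it in the introns, without overlap in either. The log2 fold changes were -0.93 in canonical exons (SE 0.22, adjusted p = 0.0168) and 1.36 in canonical introns (SE 0.17, adjusted p = 0.000897). Leaving out 1 library at a time, the intron value was at least 1.22, with an adjusted p of at most 0.00923. The exon value stayed between -1.13 and -0.68, and lost its call without MDH2 IP replicate 1 (adjusted p = 0.0788) or SMI replicate 1 (adjusted p = 0.0652).

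IgG IP showed the same split. It held 102.7, 177.4 and 186.4 CPM in the canonical introns of EEF1A1, 155.5 ± 46.0 CPM on average against 158.6 ± 8.19 CPM in MDH2 IP. Over SMI the IgG IP values were 1.38 in canonical introns (adjusted p = 0.00487) and -1.40 in canonical exons (adjusted p = 0.00594). Between MDH2 IP and IgG IP the canonical introns differed by a log2 fold change of 0.0030 (95% interval -0.53 to 0.54, adjusted p = 0.996). The 3 comparisons share libraries and are not independent.

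**Figure D1:**
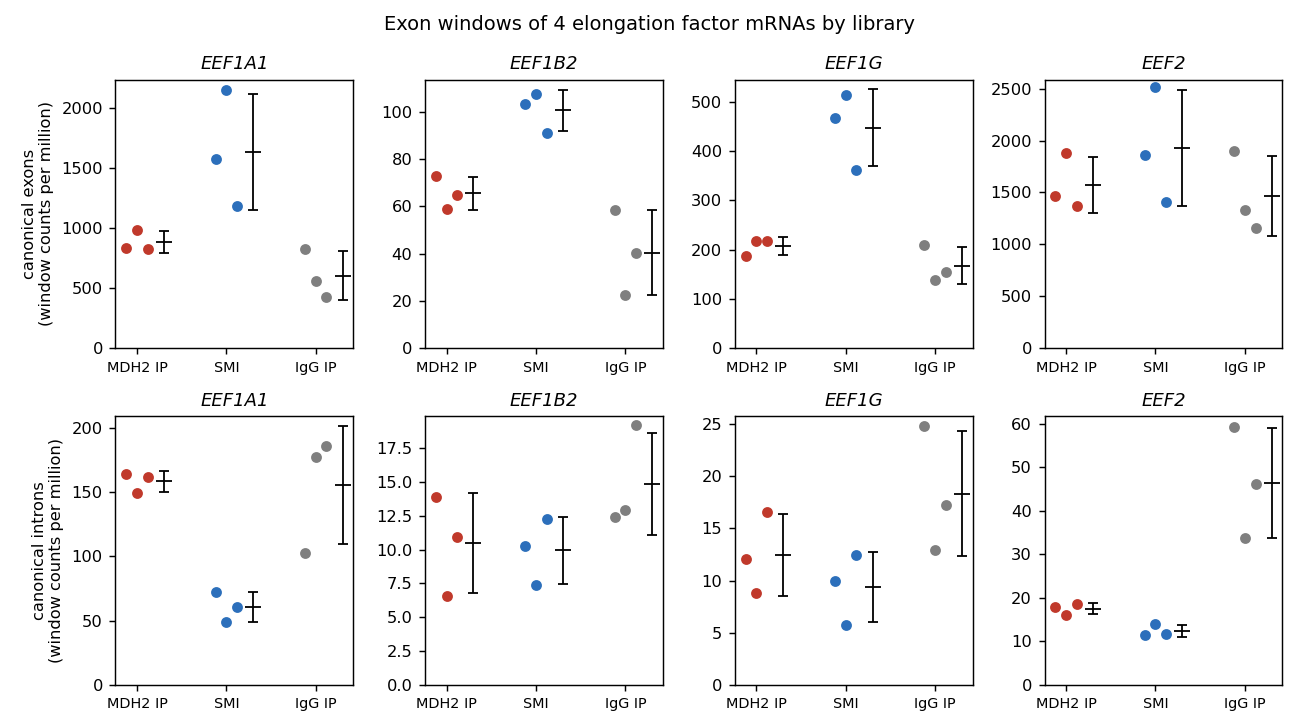
Levels of EEF1A1, EEF1B2, EEF1G and EEF2 in each library, as CPM on linear axes that start at 0, for exon windows in canonical exons (upper panels) and in canonical introns (lower panels). Points are libraries and bars the mean and SD of 3; in EEF1A1 the MDH2 IP points lie below SMI in the exons and above SMI in the introns, where IgG IP is also above SMI.

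As a share of canonical exon and intron counts, the introns of EEF1A1 made up 16.4%, 13.1% and 16.5% in MDH2 IP, 4.40%, 2.23% and 4.87% in SMI, and 11.1%, 24.1% and 30.3% for IgG IP. The share was higher in both IPs than in SMI for EEF1A1, EEF1G and EEF2 in every library. In EEF1B2 the intron share was 13.5% ± 3.08 in MDH2 IP, 9.08% ± 2.73 in SMI and 28.7% ± 9.92 for IgG IP, and MDH2 IP overlapped SMI. In EEF1G the intron share was 5.66% ± 1.63, 2.17% ± 1.11 and 9.71% ± 1.08 in the same order of groups. In EEF2 it was 1.13% ± 0.253, 0.663% ± 0.147 and 3.11% ± 0.670. The exact two-sided permutation p was 0.1 where groups did not overlap, the smallest that 3 against 3 libraries can give (adjusted p = 0.12 over 12 comparisons).

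The other members had fewer counts in canonical introns. Over SMI, MDH2 IP was at a log2 fold change of 0.05 in EEF1B2 (adjusted p = 0.937), 0.37 in EEF1G (adjusted p = 0.522) and 0.46 in EEF2 (adjusted p = 0.210). The 427 windows of EEF1G listed as intron went the other way, with 35.18 ± 8.79 CPM in MDH2 IP, 56.87 ± 12.5 in SMI and 68.6 ± 16.1 for IgG IP, and MDH2 IP over SMI was at -0.73 (adjusted p = 0.0567). In canonical exons EEF1B2 was at -0.65 (adjusted p = 0.0194) and EEF1G at -1.15 (adjusted p = 0.00214, up to 0.0209 with 1 library left out). EEF2 canonical exons were at -0.33 (adjusted p = 0.335). The EEF1B2 call was lost without MDH2 IP replicate 2 (adjusted p = 0.0652), SMI replicate 1 (0.0815) or SMI replicate 2 (0.0602).

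In EEF2, IgG IP exceeded MDH2 IP in intronic windows. Its canonical introns held 59.31, 33.87 and 46.12 CPM in IgG IP, 17.85, 16.10 and 18.62 CPM in MDH2 IP and 11.37, 14.00 and 11.76 CPM in SMI. The 3 groups did not overlap. IgG IP was higher than SMI by a log2 fold change of 1.96 (adjusted p = 0.00221), and MDH2 IP over IgG IP was at -1.46 (adjusted p = 0.0354). The latter call was lost when any library but IgG IP replicate 2 was left out, with adjusted p-values of 0.0736 to 0.206. EEF2 windows listed as intron held 141.5 ± 17.8 CPM in MDH2 IP, 84.17 ± 1.82 in SMI and 284.3 ± 54.5 for IgG IP. MDH2 IP exceeded SMI there by a log2 fold change of 0.72 (adjusted p = 0.0104), a call lost without MDH2 IP replicate 1 (adjusted p = 0.0540) or SMI replicate 1 (adjusted p = 0.0592).

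**Figure D2:**
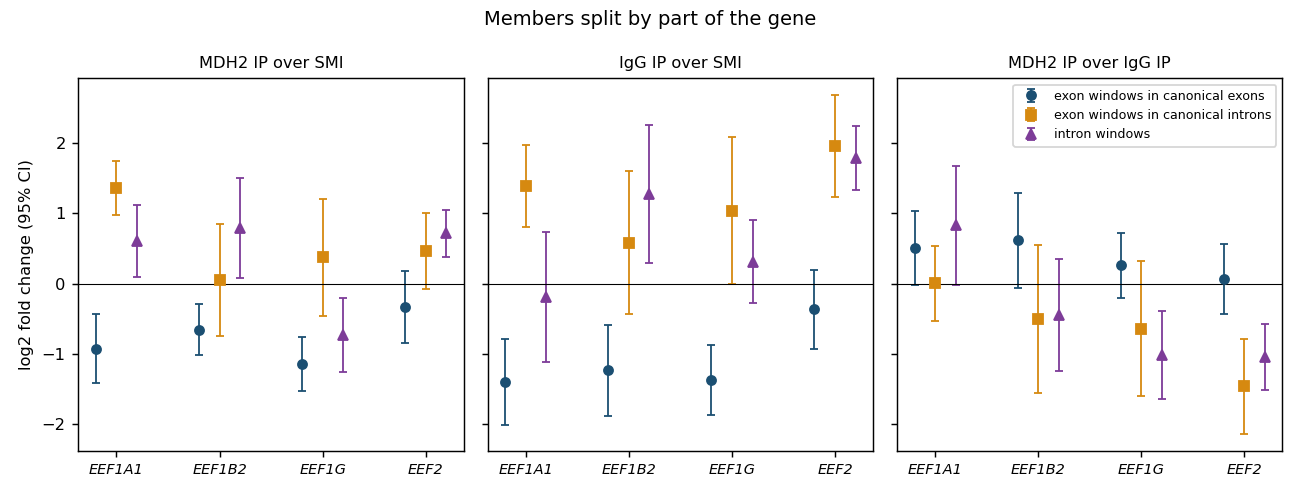
Log2 fold change with its 95% interval (vertical axis) for exon windows in canonical exons, exon windows in canonical introns and intron windows of EEF1A1, EEF1B2, EEF1G and EEF2 in the 3 comparisons. Over SMI, the canonical introns of EEF1A1 lie at 1.36 in MDH2 IP and 1.38 in IgG IP and its canonical exons at -0.93 and -1.40.

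Single windows placed the EEF1A1 signal. Against SMI, MDH2 IP was enriched in 7 (2.46%) of the 284 member windows tested, that is, higher by a log2 fold change of at least 1 at an adjusted p of at most 0.05. Over all exon windows tested, 3.19% were enriched. All 7 were numbered to exon 3 of EEF1A1 and lay in the first intron of its canonical transcript, between chr6:73520503 and 73520852, with log2 fold changes of 1.55 to 2.06. Of 52 listed EEF1A1 windows in canonical introns, 18 reached 10 counts in 3 libraries and were tested. The MDH2 IP libraries alone could meet this, as at chr6:73520503-73520552 (19, 16 and 12 counts against 4, 5 and 5 in SMI). Of the 7 enriched windows, only 2 reached 10 counts in SMI libraries, at chr6:73520603-73520652 and chr6:73520623-73520672. The other enriched windows entered the test through their MDH2 IP counts alone, so their calls are not independent of the filter. All 18 were above 0 (median 1.54), which this filter partly fixed in advance. The sum over all 52 windows, given above, had no filter per window. In canonical exons 1 of 40 tested windows was above 0. The 7 enriched windows overlap in part and are not independent. Leaving out any 1 library left 2 or 3 enriched windows, DESeq2 called 2, and total counts as library size gave 20.

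The window at chr6:73520623-73520672 had the lowest adjusted p of the 7. It held 75, 41 and 50 counts in MDH2 IP, 10, 10 and 15 in SMI and 9, 3 and 7 for IgG IP. Every MDH2 IP library exceeded every SMI library (log2 fold change 2.06, SE 0.33, adjusted p = 0.000629). Scaled to depth, the levels were 13.0 ± 2.58 CPM in MDH2 IP, 2.89 ± 0.617 CPM in SMI and 8.75 ± 4.36 CPM for IgG IP, and IgG IP was itself enriched over SMI there (1.78, adjusted p = 0.0113).

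The largest log2 fold change of a tested EEF1A1 window, 2.38 (SE 0.64), was in a canonical intron within exon 4 at chr6:73518878-73518927 and did not pass the test (adjusted p = 0.0618). It held 14, 12 and 11 counts in MDH2 IP, 3, 3 and 0 in SMI and 1, 0 and 0 for IgG IP. It thus passed the count filter through its MDH2 IP libraries alone. The lowest EEF1A1 window was in exon 4, at chr6:73519358-73519407 in the coding sequence. It held 205, 171 and 82 counts in MDH2 IP, 367, 665 and 289 in SMI and 50, 11 and 7 for IgG IP (log2 fold change -1.73, SE 0.28). The EEF1A1 window with most MDH2 IP signal, in coding sequence of exon 3, stood at 44.7 ± 6.97 CPM against 65.2 ± 22.2 in SMI.

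The 4 stretches below, of 30 bases each, are printed in the sense direction, all in lower case and without a marked motif, to show where the enriched window and the windows with the steepest falls lay on GRCh38.
EEF1A1, middle of the enriched window, canonical intron, chr6:73520633-73520662, minus strand: caagatctgcacactggtatttcggttttt
EEF1A1, middle of its lowest window, coding, chr6:73519368-73519397, minus strand: tatcattgatgccccaggacacagagactt
EEF1G, start of exon 10, coding, chr11:62559808-62559837, minus strand: ctgagtccagattggcaggtggactacgag
EEF2, middle of its lowest window, coding, chr19:3982857-3982886, minus strand: tccagcgcatcgtggagaacgtgaacgtca
Tested EEF1A1 windows had a median GC content of 60.0% where enriched and 42.0% where lower (26.0% to 54.0%), with overlapping ranges. In EEF1G the lower windows had a median of 54.0%, against 52.0% in its other windows. In EEF2 the lower windows had 52.0% against 62.0%, and in EEF1B2, with 2 lower windows, 42.1% against 51.0%. The part of base composition in these differences was not tested.

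**Figure D3:**
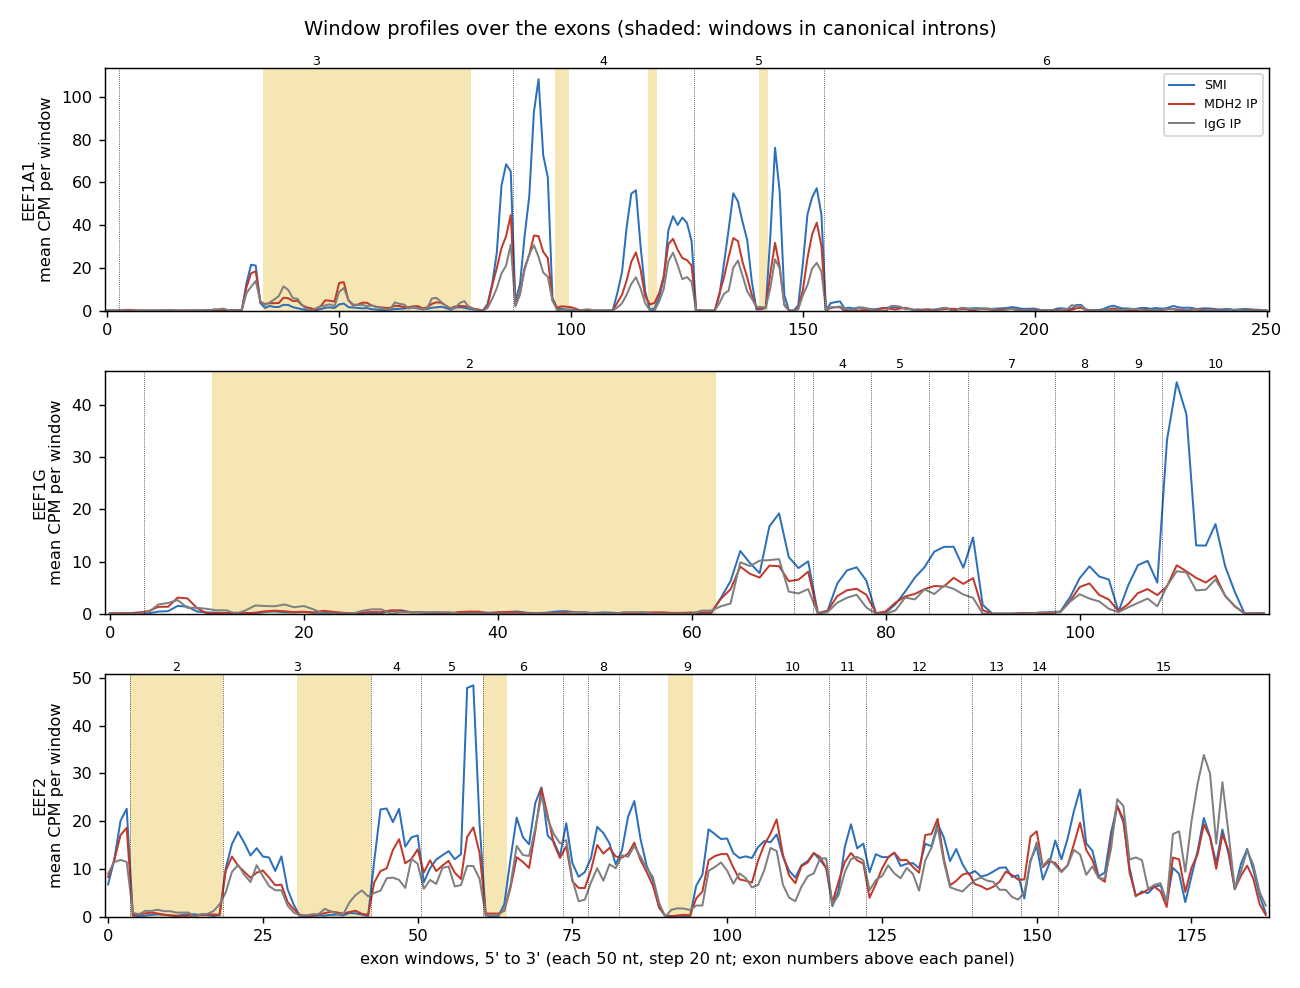
Mean level per exon window in CPM (vertical axes, from 0) along EEF1A1, EEF1G and EEF2, 5′ to 3′, over the 3 libraries of each group, with exon numbers above and windows in canonical introns shaded. Both IPs rise above SMI in the shaded part of EEF1A1 exon 3, and SMI peaks above both in EEF1G exon 10.

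More windows were lower in MDH2 IP than higher. By the same test in the opposite direction, 21 of 72 tested windows of EEF1A1 were lower than SMI, 2 of 24 of EEF1B2, 17 of 39 of EEF1G and 7 of 149 of EEF2. Together these are 16.5% of the tested member windows, against 8.61% of all exon windows tested.

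By exon, 10 member exons were lower in MDH2 IP than in SMI and 0 were higher, where 5.52% of 58684 exons were lower and 2.66% higher. In EEF1A1 these were exons 4, 5 and 6 at -1.14, -1.01 and -1.46, while exon 3, which holds 16 of its 18 tested canonical intron windows, was at -0.25 (adjusted p = 0.471). In EEF1G they were exons 4, 6, 7, 9 and 10 at -1.04, -1.21, -1.32, -1.31 and -2.06. Without MDH2 IP replicate 1 or SMI replicate 1, 6 member exons were called, and without SMI replicate 3, 16. EEF1B2 exon 5 (-1.12, adjusted p = 0.0109) and EEF2 exon 5 (-0.93, adjusted p = 0.0469) were also called. EEF1B2 exon 5 includes windows over a small nucleolar RNA gene, SNORA41, and one of these was its only window lower by itself.

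Exon 10 of EEF1G, its last exon with the end of the coding sequence, carried the largest of these differences. It held 43.58, 48.29 and 51.44 CPM in MDH2 IP, 191.3, 193.1 and 133.8 CPM in SMI, and 53.12, 41.93 and 30.74 CPM for IgG IP. The lowest SMI library lay above all 6 IP libraries. The log2 fold change over SMI was -2.06 in MDH2 IP (SE 0.22, adjusted p = 8.5e-06) and -2.10 in IgG IP (SE 0.30, adjusted p = 7.0e-05), where 4.78% of all exons were lower in IgG IP.

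The first window of exon 10 fell most of all tested member windows. It held 26, 23 and 18 counts in MDH2 IP, 135, 153 and 113 in SMI and 6, 3 and 3 for IgG IP (log2 fold change -2.76, SE 0.27). The next window had the most MDH2 IP signal of EEF1G, at 9.28 ± 0.463 CPM against 44.4 ± 7.53 in SMI and 8.15 ± 2.43 for IgG IP. The highest log2 fold change of an EEF1G window was -0.18 (exon 2), so none was above 0. Exon 10 made up 20.1% of EEF1G counts on average in MDH2 IP, 38.6%, 36.5% and 34.5% in SMI, and 21.1%, 25.2% and 17.0% for IgG IP. Relative to the rest of its gene, exon 10 was at -0.87 and did not pass the test (adjusted p = 0.0762). By this edgeR test 0 member exons passed, and 4 of 34 had an unadjusted p under 0.05. Over all exons, 0.187% were lower and 0.738% higher relative to their gene.

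In EEF2 the lowest window lay in the coding sequence of exon 5 at chr19:3982847-3982896. It held 87, 84 and 45 counts in MDH2 IP, 179, 306 and 96 in SMI and 14, 5 and 6 for IgG IP (log2 fold change over SMI -1.61, SE 0.32). Scaled to depth, all 3 MDH2 IP values lay below the SMI values. The highest was in exon 14 at 0.94 (SE 0.33, adjusted p = 0.170), where the MDH2 IP libraries held 44, 33 and 24 counts and those of SMI 16, 19 and 11. The window with most MDH2 IP signal, in exon 6, stood at 26.9 ± 7.54 CPM against 27.1 ± 12.7 in SMI and 25.3 ± 8.80 for IgG IP.

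In EEF1B2 no tested window rose above a log2 fold change of 0.37 (SE 0.38, exon 3). Its window with most MDH2 IP signal, in exon 2, stood at 5.48 ± 0.536 CPM against 8.75 ± 1.24 in SMI. Its lowest, at -1.58 (SE 0.41), held 8, 16 and 4 counts in the MDH2 IP libraries against SMI counts of 23, 34 and 18, and overlaps SNORA41, a small nucleolar RNA gene within an intron of EEF1B2. The 7 windows over SNORA41 held 337 counts, 8.93% of the EEF1B2 total, so the exon sum of EEF1B2 includes reads that may come from that RNA.

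**Figure D4:**
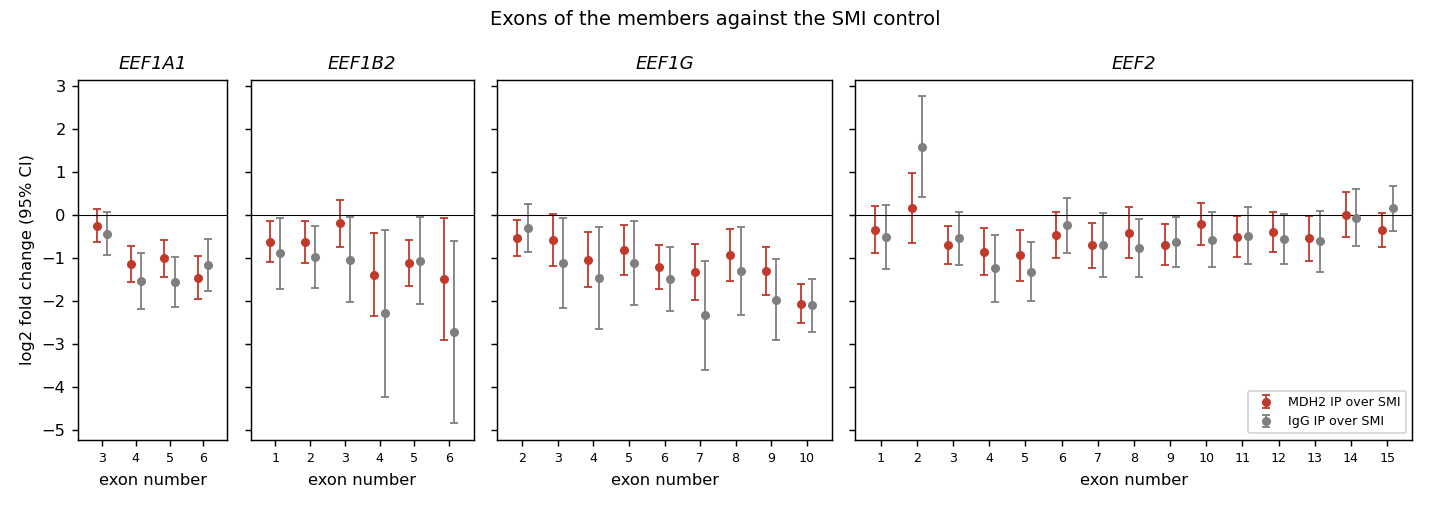
Log2 fold change with its 95% interval (vertical axis) for each tested exon of EEF1A1, EEF1B2, EEF1G and EEF2 (horizontal axis, exon number), for MDH2 IP over SMI and IgG IP over SMI. The lowest MDH2 IP value is that of EEF1G exon 10 at -2.06, beside -2.10 in IgG IP.

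Along the mRNA, positions were measured as the mean place of a member's counts, from 0% at the first to 100% at the last exon window. In EEF1G this was 67.7%, 70.6% and 66.8% in MDH2 IP and 77.2%, 77.5% and 74.8% in SMI, a difference of -8.18 percentage points without overlap. It was 43.9% ± 0.367 against 46.6% ± 0.278 in EEF1A1 and 56.2% ± 1.36 against 53.7% ± 1.25 in EEF2. The mean places of EEF1B2 overlapped. Over 52 comparisons of positions and exon shares, the exact permutation p was at least 0.1 and the adjusted p at least 0.26.

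Within canonical exons, most member counts were coding. The coding share was 95.3% ± 0.629 in MDH2 IP, 93.8% ± 0.676 in SMI and 91.6% ± 2.54 for IgG IP in EEF1A1. It was at least 98.8% in every library in EEF1G. In EEF2 the 3′ UTR held 14.4% ± 1.01 in MDH2 IP, 12.2% ± 1.40 in SMI and 24.3% ± 5.14 for IgG IP, with IgG IP above all other libraries.

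Over IgG IP, the comparison for specificity, 0 of 4 members passed the test, and over all 12573 genes 0.302% were higher and 1.8% lower. The log2 fold changes were 0.43 for EEF1A1 (95% interval -0.0084 to 0.87, adjusted p = 0.332), 0.43 for EEF1B2 (SE 0.31), 0.21 for EEF1G (-0.26 to 0.67) and 0.04 for EEF2 (-0.46 to 0.53). At an unadjusted p under 0.05, 0 of the 4 would be called by edgeR, and 0 were called by DESeq2. With exon and intron windows summed together, EEF1A1 was called higher than in IgG IP (1.03, adjusted p = 0.0158), the only alternative to the exon sums under which a member was. That call was not particular to EEF1A1. Under the same setting 39 of 74 cytosolic ribosomal protein and 14 of 34 initiation factor mRNAs were called higher, against 0 of either by exon sums. Differences were more frequent over the whole table too. In either direction, 4571 of all 15492 genes had an unadjusted edgeR p under 0.05 there, against 1937 of 12573 by exon sums. These calls are thus not read as a trait of translation mRNAs. Of 258 member windows tested, 0 were enriched over IgG IP, where 0.0751% of all exon windows were. By edgeR 4 were past a log2 fold change of 1 at an unadjusted two-sided p under 0.05, where the enrichment test is one-sided, and by DESeq2 0 were enriched. The 7 EEF1A1 windows enriched over SMI had log2 fold changes over IgG IP of -0.19 to 1.00.

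IgG IP was lower than SMI for EEF1A1 (-1.15, SE 0.25, adjusted p = 0.00882) and EEF1G (-1.20, SE 0.22, adjusted p = 0.00381), where 5.98% of all genes were lower and 9.58% higher. EEF1B2 (-0.92, adjusted p = 0.0601) and EEF2 (-0.33, adjusted p = 0.423) did not pass. In windows, 8 of 261 tested were enriched in IgG IP over SMI (3.07%, against 5.06% of all exon windows). Of these, 3 were in the first canonical intron of EEF1A1 between chr6:73520603 and 73520912, and 5 in the 3′ UTR of EEF2 between chr19:3976276 and 3976525, with log2 fold changes of 1.29 to 1.92 in the latter. Of the 7 EEF1A1 windows enriched in MDH2 IP, 2 had enough counts to be tested in IgG IP over SMI, and both were enriched. The count of 8 fell to 0 without SMI replicate 1 or 3, to 1 without SMI replicate 2 and to 4 without IgG IP replicate 2.

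Some EEF1A1 reads may belong to copies elsewhere, since up to 10 alignments per read were kept. Reads with more alignments were discarded, so EEF1A1 reads that match many copies may also be missing. The 43 listed pseudogenes of EEF1A1 held 1459 counts, 3.39% of the EEF1A1 exon count. Of these, EEF1A1P11, EEF1A1P5 and EEF1A1P24 held most with 126, 108 and 106. The summed level of all 43 was 69.2 ± 6.11 CPM in MDH2 IP, 34.3 ± 11.1 in SMI and 64.4 ± 17.9 for IgG IP, with both IPs above SMI in every library. The part of shared or discarded reads in the EEF1A1 values, its levels and intron share among them, was not tested.

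Other genes of translation are given by lists. Of 74 tested cytosolic ribosomal protein mRNAs, which are TOP mRNAs too, 36 were lower than SMI in MDH2 IP and 0 higher, with a median of -0.53 (all genes 0.0050). RPL21 (-1.60), RPLP0 (-1.59) and RPSA (-1.43) of the ribosome had the lowest p, then RPS23 (-1.31), RPS2 (-1.15) and RPL27A (-1.11). The medians of the 4 members and of these mRNAs were -0.64 and -0.53, and both lists stayed below 0 with total counts as library size (-0.47 and -0.37). With exon and intron windows together the medians were -0.24 and -0.20, and 23 ribosomal protein mRNAs were lower and 2 higher. By exon sums, IgG IP too was lower than SMI in 39 of the 74 and higher in 0 (median -0.73). Between MDH2 IP and IgG IP 0 of the 74 were called (median 0.22).

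Of 34 initiation factor mRNAs, 5 were higher in MDH2 IP than in SMI and 8 lower, with a median of -0.19. The 6 with the lowest p were EIF4A2 (-1.38), EIF4G1 (0.79), EIF3E (-0.82), EIF3M (-0.77), EIF3C (1.94) and EIF3G (0.62). In IgG IP, 1 of the 34 was higher than SMI and 8 lower, and 0 were called between MDH2 IP and IgG IP. Of 6 tested cytosolic factors that are no members, HBS1L, a ribosome rescue factor (-0.56), and EIF5A2 (-1.32) were lower than SMI in MDH2 IP. Both calls were lost with total counts as library size. Among 15 genes that modify elongation factors, DOHH, which completes the hypusine of eIF5A, was higher than SMI in MDH2 IP (1.46). It was higher still in IgG IP (2.63, adjusted p = 0.000101), and MDH2 IP was below IgG IP (-1.14, adjusted p = 0.0414). Of the 7 genes in that list that act in making the diphthamide of eEF2, 3 were lower than SMI, DPH3 (-1.54), DNAJC24 (-0.85) and DPH6 (-1.11), and 0 higher. The other 4 did not pass, with DPH1 at 0.31, DPH2 at 0.60, DPH7 at 0.44 and DPH5 at -0.10. In IgG IP, 1 of the 7 was higher than SMI and 2 lower, and 0 were called between MDH2 IP and IgG IP. With total counts as library size, 8 initiation factors were higher in MDH2 IP than in SMI and 3 lower. Under that scaling the medians of the other cytosolic factors and of the modifying genes turned from -0.11 and -0.03 to 0.06 and 0.14. Of 5 mitochondrial factors, GUF1 was lower (-0.83) and 0 were higher, while total counts as library size gave 2 higher and 1 lower.

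**Figure D5:**
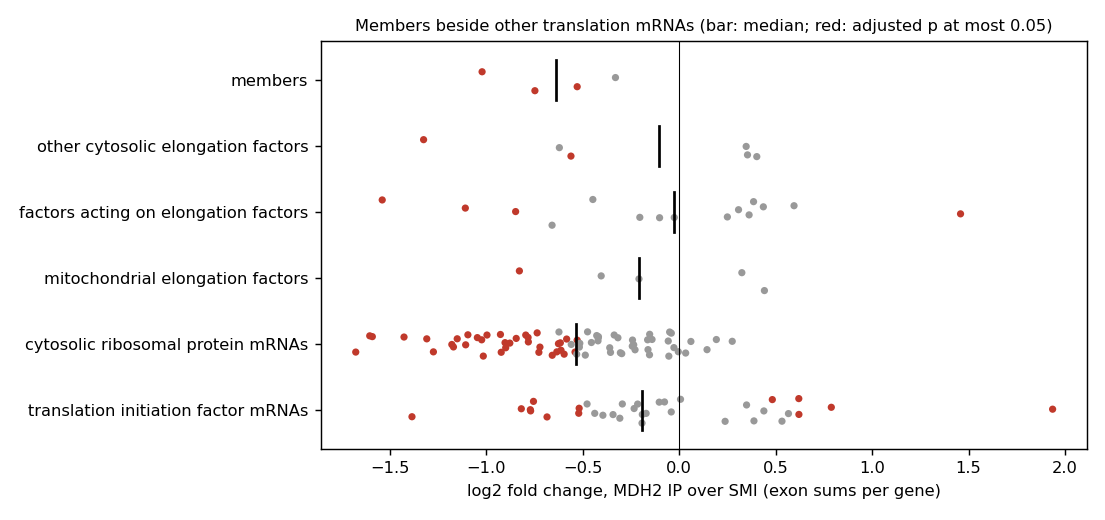
Log2 fold change of MDH2 IP over SMI by exon sums (horizontal axis) for the 4 measured elongation factor mRNAs and the tested genes of 5 other lists. Points are genes, red where the test was passed, and bars are medians; the members' median of -0.64 lies beside -0.53 of the ribosomal protein mRNAs.

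The genes whose levels over the 9 libraries were most like the members' mean were RACK1 (Pearson r = 0.982), ENSG00000255508 (0.964), EIF3L (0.964), FGD4 (0.954) and DAP (0.949), among 5592 compared. The libraries share groups and depth, so these values describe likeness. Of the 50 most alike, 7 were ribosomal protein mRNAs, of 73 compared.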

How the data were processed

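eCLIP libraries of MDH2 IP, IgG IP and SMI (3 each) were grouped by their labels. The deposited unit is raw counts of cross-link sites per window. Per the labels and methods, the authors used cutadapt, STAR and HTSeq, kept up to 10 alignments per read, removed PCR duplicates by molecular identifiers, and counted sites with htseq-clip in windows of 50 nt, stepped by 20 nt, over GENCODE v23 models. Here, counts were summed per gene and exon. Names came from GENCODE v44 (33751 of 34950 Ensembl identifiers, 96.6%), and windows were placed on GRCh38 by fitting window numbers to its exon borders. For EEF1G exon 10 the 3′ border had more than 1 placement.

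Genes, exons and windows that reached 10 counts in 3 or more of the 6 libraries in a comparison entered a fit over the whole table with edgeR 4.0.16 (quasi-likelihood, TMM) in R 4.3.3, called at a Benjamini-Hochberg adjusted p of at most 0.05. Window p-values were one-sided and multiplied by how many tested windows overlapped. DESeq2 1.42.0 was an alternative. Python 3.11.15, pandas 2.3.3, scipy 1.17.1 and matplotlib 3.10.9 were used, and scripts were tested on simulated data. For simulated log2 changes of 1 between MDH2 IP and SMI, 29.5% of genes, 0% of exons and 14% of windows were recovered. At 2 these were 97%, 75% and 97%, and 50% for exons relative to their gene. Failing the test therefore does not by itself show that a change of 1 was absent. For member exon sums that did not pass, the intervals of MDH2 IP are more direct. Those given above for EEF2 over SMI, and for EEF1A1, EEF1G and EEF2 over IgG IP, did not reach 1 in either direction. That of EEF1B2 over IgG IP did (-0.24 to 1.10). Exact permutation tests were two-sided. Window counts per library were 5899998 to 9482501 in MDH2 IP, 8311118 to 9788565 in SMI and 1631267 to 2942816 in IgG IP. Replicates differed by more than sampling noise (chi-square per degree of freedom at least 2.72).

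Members and lists were chosen with earlier results of these data known. Named were all members, up to 6 genes per other list by smallest p, for each member the windows with most MDH2 IP signal and the highest log2 fold change, the 3 pseudogenes with most counts and the 5 most alike genes; the lowest windows and the split by canonical transcript were added after values were seen.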

Additional observations from a re-analysis of the deposited data

Results flagged for a closer look

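Windows listed as intron lay outside the exon sums. In EEF1A1 the 39 intron windows held 20.1, 25.85 and 20.4 CPM in MDH2 IP, a mean of 22.1 ± 3.24 CPM. Every MDH2 IP library exceeded every SMI library (14.17 ± 1.0 CPM) and every IgG IP library (12.33 ± 1.5 CPM), which is what drew attention to this value. The log2 fold change was 0.61 over SMI (adjusted p = 0.0911, edgeR) and 0.83 over IgG IP (adjusted p = 0.331), so neither difference passed the test. The IgG IP libraries held 12, 8 and 7 counts there.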

How the results depend on the processing

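The fall of EEF1G in MDH2 IP kept its call under all 16 alternatives, and no called value changed sign. Of 3 members called against SMI, 1 was called with total counts as library size, 1 with exon and intron windows together and 1 with a fold change of at least 2, and leaving out 1 library gave 1 to 3. Member exons called went from 10 to 6 with all 9 libraries in 1 fit and to 0 relative to the gene (an alternative chosen after seeing the data), and to between 6 and 16 with 1 library left out. The 7 windows enriched over SMI became 2 with DESeq2, 20 with total counts, 3 with a lower count filter, 2 with at least 30 counts, 12 without multiplication for overlap, 1 at a log2 fold change of at least 2, 11 with a two-sided p, and 2 to 3 with 1 library left out. Over IgG IP, exon and intron windows together called 1 member (EEF1A1, 1.03, adjusted p = 0.0158) and a two-sided p called 1 window, against 0, and leaving out 1 library gave 0 of either. Exon and intron windows together also called 39 of 74 ribosomal protein mRNAs higher than in IgG IP, in a setting with more low p-values over all genes. The 8 windows enriched in IgG IP over SMI became 13 with total counts, 2 with a lower filter, 4 with at least 30 counts, 1 at a log2 fold change of at least 2, and 0 to 7 with 1 library left out, while the 2 members called stayed 2. The causes were not tested. With 1 library left out, the shift in mean position against SMI ranged from -2.88 to -2.52 percentage points in EEF1A1, -3.59 to -2.07 in EEF1B2, -9.29 to -7.38 in EEF1G and 1.78 to 3.25 in EEF2, and against IgG IP from 0.40 to 2.80, -3.49 to 1.06, 2.25 to 4.70 and -5.59 to -2.25.

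The labels do not state that replicate numbers pair libraries, but SMI was set aside from lysate before the IP, so pairs are possible. The main tests left pairing out. Same-numbered MDH2 IP and SMI libraries deviated from their group means with correlations of 0.0751, 0.485 and 0.497. Each correlated best with its own number, though MDH2 IP replicate 1 only narrowly (0.044 with SMI replicate 2). With the replicate number as a block, 4 members (EEF2 added, edgeR adjusted p = 0.00690), 26 member exons and 12 enriched windows were called against SMI. The block lowered p-values over the whole table. Of 13923 genes, 6773 had an unadjusted edgeR p under 0.05 with it and 4744 without it, so the added calls are not particular to the members. IgG IP depth limits the comparisons that use it.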
